A study of Homo sapiens with 14 samples.

Results

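AMIGO2, KCNG1 and GALNT6 are the 3 genes with the largest called rise when HMGB2 was knocked down in IMR90 cells, a widely used line of human lung fibroblasts, among genes that averaged 10 CPM or more (counts scaled to a common library total) over the knockdown and untreated libraries. They were chosen by the size of that difference, out of 54628 gene symbols, of which 19126 had enough counts to be tested, all 3 among them. The question followed here is whether inflachromene (ICM), a small molecule that binds HMGB1 and HMGB2 and was used to bring the cells into senescence, changed the same genes alike. RNA from 14 bulk libraries was counted per gene, with 22336161 to 58257456 gene counts per library.

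The 7 groups held 2 libraries each. WT was unmodified, untreated IMR90, and siHMGB2 was untreated IMR90 with HMGB2 knocked down by siRNA. No group was labelled as given a non-targeting siRNA, so the loss of HMGB2 and the delivery of siRNA cannot be told apart in siHMGB2 against WT. The other 10 libraries all came from cells given 10 µM ICM for up to 6 days. ICM replicates 1 and 2 (ICM 1-2) and the libraries labelled siSRRM2 and siBANF1 formed one set, and ICM replicates 3 and 4 (ICM 3-4) and siCTCF another, so ICM 1-2 and ICM 3-4 carry the same genotype (WT) and treatment labels. The titles of the second set give IMR90, while its cell line entries read IMR91 to IMR94. The labels name 2 IMR90 isolates, I79 and I83, without saying which library came from which, and do not say that replicates were separate cultures, so the p-values measure only the spread between these libraries, which may be technical.

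HMGB2 is a DNA-bending high mobility group box protein of chromatin whose level falls as fibroblasts enter senescence. AMIGO2 is a transmembrane adhesion protein with leucine-rich repeats and an immunoglobulin domain. KCNG1 (Kv6.1) is a modulatory potassium channel subunit that forms no working channel alone and joins other channel subunits, and GALNT6 is a Golgi enzyme that attaches the first sugar, N-acetylgalactosamine, to serine or threonine in mucin-type O-glycosylation. AMIGO1, a relative of AMIGO2, is itself an auxiliary subunit of potassium channels.

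All 3 genes lie on the minus strand, and the positions given here are from the GRCh38.p14 RefSeq annotation. AMIGO2 spans chr12:47075707-47079959, GALNT6 spans chr12:51351252-51391673 and KCNG1 spans chr20:51003656-51023107. The AMIGO2 promoter is shown because it is the one of the 3 held by the RefSeq promoter table used here and because AMIGO2 had the largest difference on HMGB2 knockdown. The window covers 250 bases before to 50 bases after the start site, at chr12:47079902-47080201, minus strand, written 5′ to 3′ with motif matches in capitals.
AMIGO2 promoter: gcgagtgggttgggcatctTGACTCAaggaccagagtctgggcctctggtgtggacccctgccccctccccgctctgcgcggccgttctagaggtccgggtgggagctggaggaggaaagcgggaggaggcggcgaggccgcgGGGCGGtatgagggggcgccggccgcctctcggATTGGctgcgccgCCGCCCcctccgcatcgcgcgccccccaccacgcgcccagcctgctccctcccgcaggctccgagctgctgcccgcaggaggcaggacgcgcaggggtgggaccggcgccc
Searched on both strands were the TATA box (TATAAA), the CCAAT box (CCAAT), the GC box (GGGCGG), the AP-1 element (TGACTCA), the cyclic AMP response element (TGACGTCA), the E-box (CACGTG) and the ETS element (CCGGAAGT). The window held the letters of the AP-1 element at -231 from the start, and 4.95% of the 35116 promoters in the table hold it. It held the GC box letters at -107 and, read on the other strand as CCGCCC, at -61, which 45.0% of promoters hold at least once. The CCAAT box, read on the other strand as ATTGG, lay at -74 and occurs in 34.6% of promoters. The other 4 motifs were not in these letters, and the window had a GC content of 75.3%, against a median of 58.7% over all promoters. The table lists another AMIGO2 start, at the upper end of the gene span given here, so the start used above lies just inside that span. The window of this other start, at chr12:47079910-47080209, holds the same matches and a further CCAAT box at -250. Matches are descriptions of the letters, and nothing in these RNA counts measures binding there.

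Several libraries stood apart before any of the 3 genes was considered. Small RNA genes took 3.19% to 6.06% of gene counts in ICM 1-2 and the libraries labelled siSRRM2 and siBANF1, and at most 0.00835% elsewhere, and mitochondrial genes took 3.20% to 4.27% in WT and siHMGB2 and 0.0771% to 0.928% in the ICM-treated libraries. ICM 1 and the first siBANF1 library departed from their group means together, with a correlation of 0.81 across 19126 genes, which are not independent replicates. The libraries labelled siBANF1 held SRRM2 at 59.0 and 17.0 CPM, those labelled siSRRM2 at 76.1 and 76.4 CPM and ICM 1-2 at 238 and 112 CPM, and the deposited files of these 2 groups are named for the other knockdown. BANF1 itself read 34.2 and 33.3 CPM under the siSRRM2 label, 17.0 and 36.7 CPM under the siBANF1 label and 13.5 and 32.7 CPM in ICM 1-2, so the group labelled for its knockdown overlapped with ICM 1-2. CTCF was at 71.5 and 23.0 CPM in siCTCF and at 94.9 and 91.9 CPM in ICM 3-4. All 10 fibroblast markers checked reached 1 CPM in at least 1 library, as did 3 of 8 epithelial, 4 of 6 endothelial, 2 of 6 leukocyte, 4 of 6 smooth muscle and 3 of 6 neuronal markers. The defining markers EPCAM, PECAM1 and PTPRC of epithelium, endothelium and leukocytes stayed below 1 CPM in every library.

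The 2 WT libraries held HMGB2 at 27.7 and 28.0 CPM, and the siHMGB2 libraries at 3.18 and 3.52 CPM. The gene was also low wherever ICM was given, with 8.13 and 9.60 CPM in the first ICM set and 7.65 and 11.5 CPM in the second. The fall against WT was 1.79 on the log2 scale in each ICM set (SE 0.42 in both; edgeR quasi-likelihood test over all genes, adjusted p = 0.0214 in ICM 1-2 and 0.0120 in ICM 3-4), and every library of ICM 1-2 and ICM 3-4 lay below both WT libraries. In ICM 1-2 the call was lost in the fit of only the 4 libraries compared (adjusted p = 0.0955). HMGB2 was lowest of all, at 2.18 CPM, in the first siBANF1 library.

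The adhesion gene AMIGO2 read 16.4 and 18.4 CPM in the untreated cells and 79.4 and 107 CPM once HMGB2 was knocked down. The channel gene KCNG1 read 31.5 and 26.4 CPM in WT, against 104 and 155 CPM with the knockdown. The glycosylation gene GALNT6 read 3.31 and 4.58 CPM in WT, against 14.7 and 20.7 CPM with the knockdown. For each gene both knockdown libraries lay above both WT libraries, as they did for 19.7% of the genes tested, and the second knockdown library was the highest of the 14. From the fit of these 4 libraries the log2 fold change was 2.48 (SE 0.15) for AMIGO2, 2.23 (SE 0.16) for KCNG1 and 2.22 (SE 0.20) for GALNT6, and the fit of all 14 libraries gave 2.48 (SE 0.53), 2.22 (SE 0.61) and 2.22 (SE 0.82).

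These values chose the 3 genes, so they are a description without a test. The choice was among genes called higher in the 4-library fit whose groups did not overlap and whose mean over those libraries reached 10 CPM, which 897 genes met. For example, SLC14A1, a urea transporter, had a larger difference of 3.27 but averaged under 10 CPM (1.76 in WT and 16.3 in siHMGB2). GALNT6 was just inside at 2.22, and FZD8, a Wnt receptor, just outside at 2.10. ANO1, a chloride channel, followed at 2.01, the VEGF receptor FLT1 at 2.01, the activin-binding protein FSTL3 at 1.97 and BAALC at 1.96. In that fit 10.7% of genes had an adjusted p under 0.05 (6.03% higher and 4.71% lower). In the fit of all 14 libraries 0.00% did (0 genes, with 908 at an unadjusted p under 0.05 and 74 called by DESeq2).

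**Figure D1:**
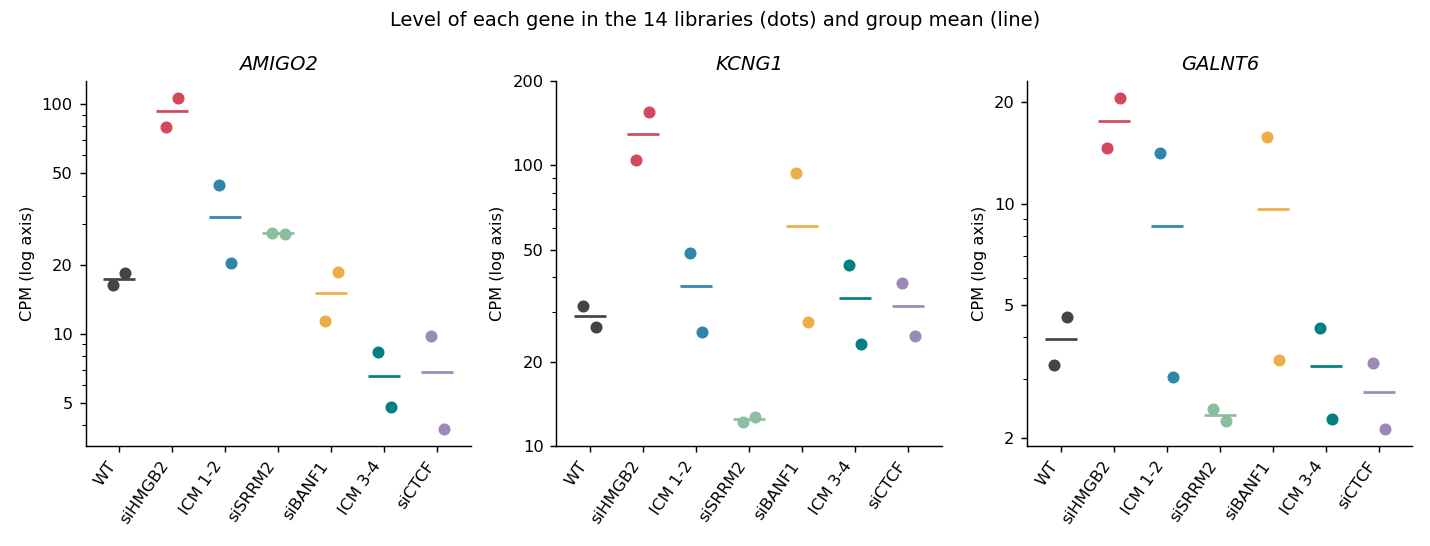
Level of AMIGO2, KCNG1 and GALNT6 in each library, in CPM on log axes, by group; dots are libraries and lines are means of 2 libraries. The siHMGB2 libraries are the 2 highest for AMIGO2 and KCNG1, the ICM 1 library lies well above ICM 2 for each gene, and AMIGO2 is at 8.32 and 4.81 CPM in ICM 3-4.

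Per kilobase of exon, AMIGO2 and KCNG1 were at like levels and GALNT6 far lower. In WT the level per kilobase was 4.39 ± 0.351 CPM (SD, n = 2) for AMIGO2, 5.33 ± 0.653 for KCNG1 and 0.537 ± 0.123 for GALNT6. In siHMGB2 it was 23.5 ± 4.86, 23.9 ± 6.62 and 2.40 ± 0.579 CPM per kilobase in the same order. In mean CPM, WT placed AMIGO2 above 59.9% of the tested genes, KCNG1 above 68.5% and GALNT6 above 44.1%. With HMGB2 knocked down these shares were 88.8%, 92.6% and 60.8%.

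In the first ICM set none of the 3 genes passed the test against WT, and each was higher in ICM 1 than in ICM 2. ICM 1 held AMIGO2 at 44.4 CPM, and ICM 2 held it at 20.3 CPM. For KCNG1 these levels were 48.8 and 25.5 CPM. For GALNT6 they were 14.2 CPM, against 14.7 CPM in the first siHMGB2 library, and 3.04 CPM, below both WT libraries. In CPM AMIGO2 did not overlap with WT, as for the 32.3% of tested genes that were higher in both ICM libraries. With the scaling factors of the fit, however, ICM 2 came below WT 2 for AMIGO2. KCNG1 and GALNT6 overlapped with WT in CPM.

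By edgeR's quasi-likelihood test in ICM 1-2 against WT, AMIGO2 had a log2 fold change of 0.79 (SE 0.51, adjusted p = 0.319). KCNG1 had one of 0.25 (SE 0.58, adjusted p = 0.800) and GALNT6 one of 1.04 (SE 0.80, adjusted p = 0.405). So 0 of 3 genes were called, where 13.5% of all genes tested were, and the median of all genes was 0.10. In the fit of only these 4 libraries 0.173% of all genes were called in ICM 1-2, and none of the 3 genes, nor any neighbour or relative described here. Without ICM 1 the values were 0.02 for AMIGO2, -0.39 for KCNG1 and -0.58 for GALNT6, and without ICM 2 they were 1.29, 0.69 and 1.78. The WT libraries are shared with the comparison that chose the genes, so the ICM values are not independent of that choice. Small RNA genes took 0.00823% and 0.00835% of gene counts in WT, against 6.06% and 3.19% in ICM 1-2. That difference between libraries and the treatment cannot be told apart here.

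In the second ICM set AMIGO2 was lower than in WT, while KCNG1 and GALNT6 were not called. AMIGO2 read 8.32 CPM in ICM 3, and 4.81 CPM in ICM 4, below both WT libraries, as were 33.3% of the genes tested. KCNG1 was at 44.3 and 23.1 CPM, on either side of its WT values. GALNT6 was at 4.27 and 2.29 CPM, overlapping with WT. In edgeR's test AMIGO2 fell by 1.63 on the log2 scale (SE 0.53, adjusted p = 0.0392), a level of 6.57 ± 2.49 CPM (SD, n = 2) against 17.4 ± 1.39 in WT.

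The log2 fold change in ICM 3-4 was -0.0038 for KCNG1 (SE 0.59, adjusted p = 1), with a sign that turned under other scalings, and -0.49 for GALNT6 (SE 0.80, adjusted p = 0.662). So 1 of 3 genes was called, where 30.3% of all genes tested were (14.3% higher and 16.0% lower). The AMIGO2 call had an adjusted p of 0.00517 in the fit of only these 4 libraries, where 47.0% of genes were called, 0.0510 with total-count scaling, and 0.0640 to 0.213 when any 1 of the 4 was left out. WT belongs to no library of the second set, so the set and the treatment cannot be told apart here.

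In CPM the ICM sets placed AMIGO2 on opposite sides of WT, though ICM 1-2 was not called against WT. HMGB2 differed between the ICM sets by 0.0023 on the log2 scale (SE 0.41). AMIGO2 was lower in ICM 3-4 than in ICM 1-2 by 2.42 on the log2 scale (SE 0.54, adjusted p = 0.0126), a comparison added after the values had been seen, in which 19.5% of genes were called. The same difference was -0.25 for KCNG1 (SE 0.58, adjusted p = 0.787) and -1.53 for GALNT6 (SE 0.81, adjusted p = 0.198). The AMIGO2 difference had an adjusted p of 0.0866 in the fit of only these libraries, where 1.25% of genes were called, 0.0797 without ICM 1 and 0.0956 without ICM 4. GALNT6 passed when ICM 2 was left out (-2.28, adjusted p = 0.0419) and not otherwise among the libraries left out.

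**Figure D2:**
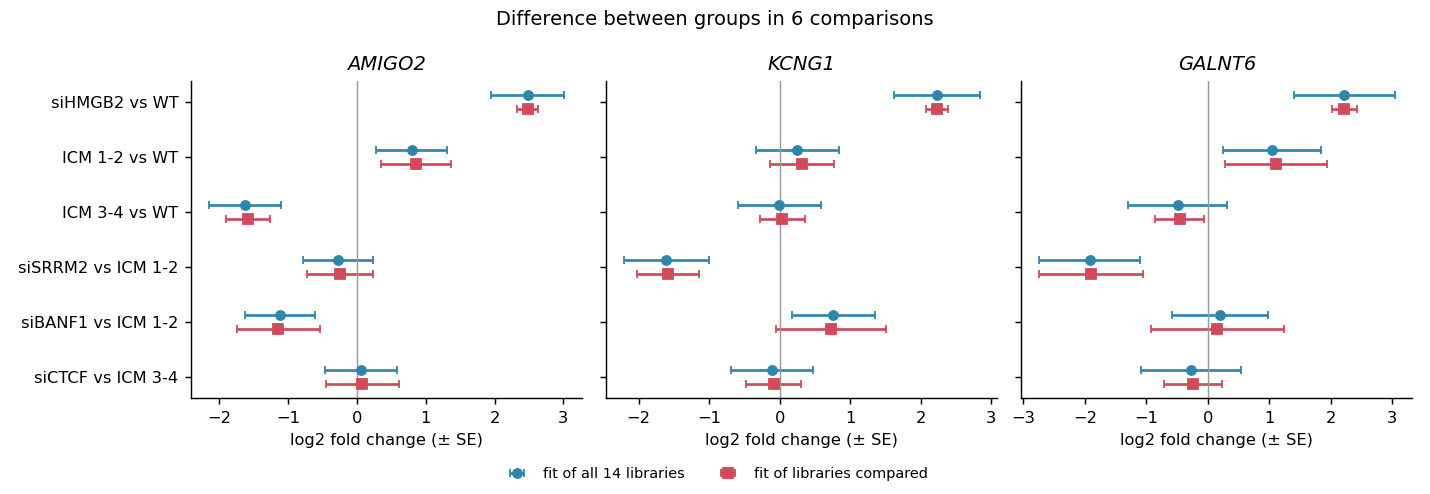
Log2 fold change with its standard error for each gene in 6 comparisons, from the fit of all 14 libraries (circles) and from the fit of only the libraries compared (squares). AMIGO2 is at 0.79 in ICM 1-2 and -1.63 in ICM 3-4 against WT, while KCNG1 is at 0.25 and -0.0038.

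Cell type markers moved with these comparisons. The summed level of the 10 fibroblast markers was 19495 to 26133 CPM in WT, 27934 to 32925 in siHMGB2, 4160 to 12717 in ICM 1-2 and 2060 to 4243 in ICM 3-4. The 6 smooth muscle markers summed to 703 to 742 CPM in WT, 950 to 1003 in siHMGB2, 79.5 to 479 in ICM 1-2 and 48.4 to 80.9 in ICM 3-4, with MYH11 and DES below 1 CPM everywhere. The epithelial list summed to 56.3 to 59.7 CPM in WT, 72.7 to 101 in siHMGB2, 34.3 to 154 in ICM 1-2 and 191 to 212 in ICM 3-4. Endothelial markers gave 75.1 to 89.7, 62.7 to 78.7, 68.4 to 244 and 2.96 to 16.2 CPM in the same order, leukocyte markers 40.0 to 40.6, 44.0 to 48.3, 59.5 to 96.0 and 96.6 to 106, and neuronal markers 91.3 to 98.3, 164 to 199, 53.9 to 79.3 and 47.9 to 67.5. The lists thus moved in different directions between WT and ICM 3-4, and their part in the values of AMIGO2, KCNG1 and GALNT6 was not tested, and in bulk RNA fewer cells of a type and less RNA per cell cannot be told apart.

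The libraries labelled siSRRM2 held the least KCNG1 of any group. KCNG1 was at 12.2 and 12.7 CPM there and GALNT6 at 2.45 and 2.25 CPM, below both ICM 1-2 libraries, as 21.0% of tested genes were. AMIGO2 was at 27.5 and 27.3 CPM, between the 2 ICM libraries. Against ICM 1-2 the log2 fold change was -1.61 for KCNG1 (SE 0.60), -1.92 for GALNT6 (SE 0.82) and -0.27 for AMIGO2 (SE 0.51), and in edgeR's test 0 of 3 were called (adjusted p = 0.337, 0.410 and 0.878), against 0.178% of all genes. When every gene with 1 count was kept in the fit, KCNG1 and GALNT6 passed, at adjusted p = 0.00136 and 0.00563.

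The libraries labelled siBANF1 split, and the split ran opposite ways in AMIGO2 and in the other 2 genes. KCNG1 was at 93.8 CPM in the first library and 27.6 CPM in the second. GALNT6 was at 15.8 and 3.43 CPM, and AMIGO2 at 11.4 and 18.6 CPM. The first of these libraries ranked 3 of 14 for KCNG1 and 2 of 14 for GALNT6, but 10 of 14 for AMIGO2. It had the lowest HMGB2 and the highest mitochondrial share of the ICM-treated libraries (0.928%), whose part in these values was not tested.

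Against ICM 1-2 the log2 fold change in the libraries labelled siBANF1 was -1.12 for AMIGO2 (SE 0.51), with no overlap, as in the 8.22% of genes lower in both. It was 0.76 for KCNG1 (SE 0.59) and 0.20 for GALNT6 (SE 0.78), both overlapping, and their sign turned without the first siBANF1 library, to -0.50 and -1.42. None of the 3 was called (adjusted p = 1 in each by edgeR), against 0.00% of all genes (0 genes, with 591 at an unadjusted p under 0.05 and 24 called by DESeq2).

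With CTCF knocked down on the ICM background the 3 genes stayed near their ICM 3-4 levels. AMIGO2 was at 9.80 and 3.85 CPM in siCTCF, KCNG1 at 38.2 and 24.8 CPM, and GALNT6 at 3.36 and 2.13 CPM, each overlapping with ICM 3-4. The lowest of these, GALNT6 in the second siCTCF library, rested on 57 counts, with an exact 95% Poisson interval of 43.2 to 73.9 counts that covers counting error only. The log2 fold changes were 0.06 (SE 0.52), -0.11 (SE 0.59) and -0.26 (SE 0.81), and 0 of 3 were called (adjusted p = 1 in each by edgeR), against 0.00% of all genes (0 genes, with 125 at an unadjusted p under 0.05 and 0 by DESeq2).

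Over the 7 groups the order of mean levels differed between the genes, with siHMGB2 highest for each. For AMIGO2 it was siHMGB2, ICM 1-2, siSRRM2, WT, siBANF1, siCTCF and ICM 3-4, where the pairs ICM 1-2 and siSRRM2, WT and siBANF1, and siCTCF and ICM 3-4 overlapped. For KCNG1 it was siHMGB2, siBANF1, ICM 1-2, ICM 3-4, siCTCF, WT and siSRRM2, and the neighbours from siBANF1 to WT all overlapped. For GALNT6 it was siHMGB2, siBANF1, ICM 1-2, WT, ICM 3-4, siCTCF and siSRRM2, where each neighbouring pair overlapped, siHMGB2 and siBANF1 included.

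KCNG1 and GALNT6 followed each other over the 14 libraries more closely than either followed AMIGO2. On log2(CPM + 1), Pearson's r was 0.90 between KCNG1 and GALNT6, 0.65 between AMIGO2 and GALNT6 and 0.45 between AMIGO2 and KCNG1. Among the 10 ICM-treated libraries it was 0.83, 0.33 and -0.16. The 14 include the WT and siHMGB2 values that chose the genes. These are descriptions, since libraries share groups, sets and the spread of the first ICM set.

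Among 10381 genes whose mean reached 5 CPM, GALNT6 ranked 3 in likeness to KCNG1, after MICAL2 (r = 0.94), an actin-oxidising enzyme, and the kinase CAMKK2 (r = 0.91), with APPL2 also at 0.90. The genes most like GALNT6 were the fibronectin receptor subunit ITGA5 (r = 0.95), MICAL2 (0.94), the urea transporter SLC14A1 (0.94), the focal adhesion protein PARVA (0.93) and the actin crosslinker FLNA (0.93), and KCNG1 ranked 16. Over the 10 ICM-treated libraries alone GALNT6 ranked 181 in likeness to KCNG1, and KCNG1 ranked 459 in likeness to GALNT6. The genes most like AMIGO2 were SLC66A3 (r = 0.95), the mitochondrial folate enzyme MTHFD1L (0.94), ANXA6 (0.93), the histamine receptor HRH1 (0.92) and the collagen prolyl hydroxylase subunit P4HA2 (0.92), and GALNT6 ranked 982 and KCNG1 2061 for it.

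**Figure D3:**
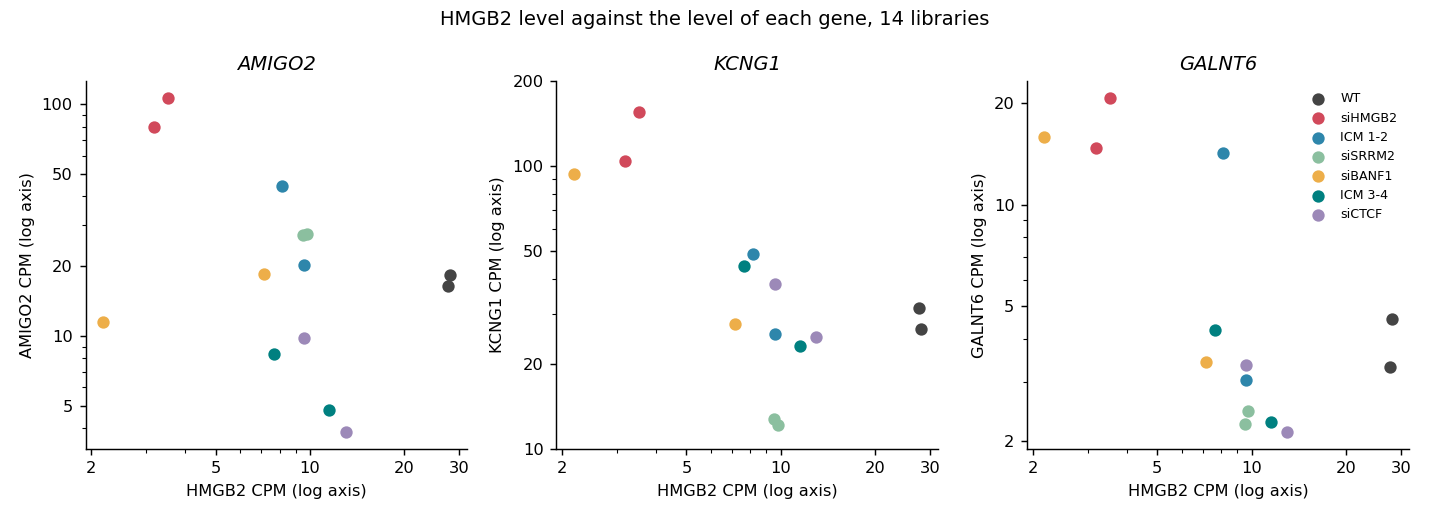
HMGB2 level against the level of each gene in the 14 libraries, in CPM on log axes, coloured by group. The ICM 3-4 and siCTCF libraries have HMGB2 at 7.65 to 13.0 CPM, below WT, and AMIGO2 also below WT, while the first siBANF1 library, with the least HMGB2, has high KCNG1 and GALNT6 and low AMIGO2.

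A low HMGB2 level went with a wide range of levels of the 3 genes. The 10 ICM-treated libraries had HMGB2 at 2.18 to 13.0 CPM, below both WT libraries. Across them the lowest and highest levels were 3.85 and 44.4 CPM for AMIGO2, 12.2 and 93.8 CPM for KCNG1, and 2.13 and 15.8 CPM for GALNT6, ranges that reached below and above WT for each gene.

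The 5 genes next in size on HMGB2 knockdown also differed from each other under ICM. FSTL3 rose in both ICM sets, by 2.00 in ICM 1-2 (SE 0.25, adjusted p = 0.00114 by edgeR) and 1.77 in ICM 3-4 (SE 0.25, adjusted p = 0.00128) on the log2 scale, though its ICM 1-2 adjusted p was 0.0742 in the fit of only the libraries compared. FLT1 and BAALC fell in ICM 3-4, with log2 fold changes of -3.16 and -5.04, and were at -0.41 and -1.44 in ICM 1-2, not called. FZD8 was at 1.55 and 2.01 and ANO1 at 1.26 and -4.47 in the same sets, not called in either.

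PCED1B, the nearest neighbour of AMIGO2, was above WT in siHMGB2 and below it in ICM 3-4, as AMIGO2 was. It lies on the opposite strand, and its lowest coordinate is 3.91 kb above that of AMIGO2. AMIGO2 starts at its highest coordinate, so the genes overlap near their starts. Their exons share 123 of the 3956 exon bases of AMIGO2. Whether counting used strand is not given in the sources used here, so reads in that stretch cannot be assigned to one gene with certainty. The WT libraries held PCED1B at 1.61 and 1.67 CPM, siHMGB2 at 4.42 and 6.75 CPM, ICM 1-2 at 2.46 and 0.553 CPM, and ICM 3-4 at 0.544 and 0.158 CPM. Its log2 fold change was 1.82 in siHMGB2 (SE 0.82), -0.22 in ICM 1-2 (SE 0.81, adjusted p = 0.881 by edgeR) and -2.44 in ICM 3-4 (SE 0.90, adjusted p = 0.0620). In the fit of only WT and ICM 3-4, where 47.0% of genes were called, its adjusted p was 0.0141 by edgeR. All siHMGB2 libraries lay above WT, as for 19.7% of tested genes, and all ICM 3-4 libraries below WT, as for 33.3%. The PCED1B values in ICM 3 and ICM 4 rested on 13 and 4 counts.

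**Figure D4:**
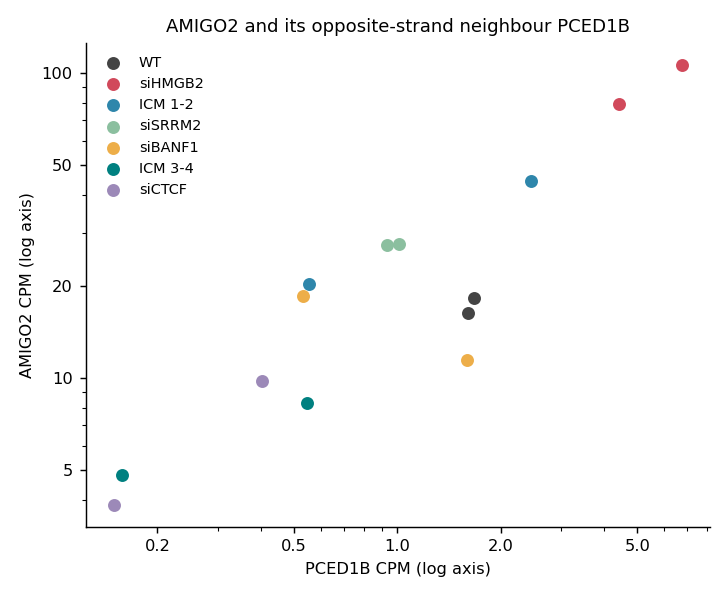
PCED1B against AMIGO2 in the 14 libraries, in CPM on log axes, coloured by group. The siHMGB2 libraries are highest for both genes and the ICM 3-4 and siCTCF libraries are among the lowest for both.

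KCNG1 shares 434 of its 5437 exon bases with AL050404.1 on the opposite strand, a gene not analysed here, so its reads in that stretch are likewise uncertain. The other gene tested within 500 kb of AMIGO2, SLC38A4, was not called in either ICM set. GALNT6 shares 392 of its 7347 exon bases with SLC4A8 on the opposite strand, which had a log2 fold change of 0.14 in siHMGB2 (SE 0.41), where GALNT6 was at 2.22. SMAGP, also near GALNT6, was at 0.74 in siHMGB2 and 0.13 and 0.19 in ICM 1-2 and ICM 3-4, and POU6F1 at 0.29, -0.83 and -1.46, not called in either ICM set. Of the 13 genes tested within 500 kb of GALNT6, 1 was called in ICM 1-2 (DAZAP2, -1.05, adjusted p = 0.0104 by edgeR) and 4 in ICM 3-4, with TFCP2 higher and SCN8A, SLC11A2 and FIGNL2 lower. Of the 14 near KCNG1, PARD6B and TMSB4XP6 were called higher in ICM 1-2, and RIPOR3, RIPOR3-AS1 and LOC105372659 lower in ICM 3-4. These counts stand beside 13.5% of all genes called in ICM 1-2 and 30.3% in ICM 3-4. The fit of only WT and ICM 3-4 called 47.0% of all genes. Near GALNT6 it called 2 higher and 5 lower, POU6F1 among the lower, and near KCNG1 1 higher and 6 lower. The nearest, MOCS3, DPM1, ADNP-AS1 and ADNP, were between -0.41 and 0.16 in siHMGB2, where KCNG1 was at 2.22.

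Relatives of AMIGO2 were called in both directions in each ICM set, where 13.5% (ICM 1-2) and 30.3% (ICM 3-4) of all genes were called, the latter split into 14.3% higher and 16.0% lower. Of 14 other leucine-rich repeat adhesion genes tested, 2 rose and 1 fell in ICM 1-2 (median log2 fold change -0.44, against 0.10 for all genes), and 1 rose and 8 fell in ICM 3-4 (median -1.55, against -0.02). In ICM 1-2 the neural adhesion protein SLITRK6 fell by 1.70 (SE 0.49, adjusted p = 0.0444 by edgeR), and the growth factor receptor regulator LRIG2 rose by 1.29 and AMIGO1 by 1.08. In ICM 3-4 AMIGO3 rose by 3.49 (adjusted p = 0.00648), opposite to AMIGO2, while LRIG1 fell by 2.07, LRRN3 fell by 4.89 and LRIG3 fell by 1.02 (adjusted p = 0.0494). FLRT2 was at 0.23 and -0.14 in ICM 1-2 and ICM 3-4, not called. SLITRK6 had 3 counts in ICM 3-4 against 920 in WT, a ratio of 216 per library total (95% counting interval 73.6 to 1049).

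The relatives of KCNG1 were thinly expressed. Of 10 other voltage-gated potassium channel subunit genes tested, 1 fell in ICM 1-2 and 2 fell in ICM 3-4, where 13.5% and 30.3% of all genes were called. Their medians were -0.20 and -3.24 (-2.93 with the genes without counts at their bounds), against 0.10 and -0.02 for all genes. KCNG2, a modulatory subunit of the same subfamily, fell by 3.74 in ICM 1-2 (SE 1.04, adjusted p = 0.0472 by edgeR), and had 170 counts in WT and 0 in ICM 3-4, at least 39.9-fold lower against a limit of 3 counts over the group. KCNA3 (Kv1.3) was the other that fell in ICM 3-4, with 1 count against 332 in WT, a ratio of 234 per library total (95% counting interval 41.7 to 9257). KCNF1, another modulatory subunit, was at 26.1 ± 1.00 CPM in WT and 3.12 ± 3.52 CPM in ICM 3-4 (SD, n = 2) and was not called (adjusted p = 0.111). KCNS3 was at 0.43 and 0.67 and KCND1 at 0.18 and 0.80 in ICM 1-2 and ICM 3-4. KCND3 had 34 counts in WT and 2 in ICM 3-4, and none of these was called in the fit of all 14 libraries. In the fit of only WT and ICM 3-4, where 47.0% of all genes were called, 5 of the 10 genes fell and 0 rose. KCNF1 (adjusted p = 0.00950 by edgeR) and KCND3 (0.0304) were among them.

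Of 21 other genes of mucin-type O-glycosylation tested, 2 rose in ICM 1-2 (median 0.09, against 0.10 for all genes), where 13.5% of all genes were called. In ICM 3-4, where 30.3% of all genes were called, 1 rose and 8 fell (median -0.51, against -0.02). With only WT and ICM 3-4 fitted, where 47.0% of all genes were called, 1 rose and 10 fell. GALNT18, a relative of GALNT6, rose by 1.94 in ICM 1-2 (SE 0.52, adjusted p = 0.0351 by edgeR) and the branching enzyme GCNT1 by 1.80. GALNT5 fell by 3.14 in ICM 3-4 (adjusted p = 0.00285), and the sialyltransferase ST6GALNAC4 rose by 1.83 (adjusted p = 0.00349). GALNT2, GALNT10 and GALNT1, initiating enzymes like GALNT6 at 343, 98.3 and 85.5 CPM in WT, were at -0.50, 0.31 and -0.46 and not called. The sialyltransferases ST3GAL1 and ST3GAL2 were at -0.37 and -0.46 in ICM 1-2 and -1.57 and -0.53 in ICM 3-4, not called. The sialyltransferase ST6GALNAC2 had 129 counts in WT and 0 in ICM 3-4, at least 30.3-fold lower.

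In siHMGB2 against WT the fit of all 14 libraries called 0.00% of all genes, these relatives included, and their medians were 0.22 for the leucine-rich repeat genes, -0.10 for the potassium channel genes and -0.04 for the O-glycosylation genes. In the fit of only those 4 libraries, where 10.7% of all genes were called, FLRT1 (1.64) rose and FLRT2 (-1.03) and SLITRK6 (-2.15) fell among the 14 leucine-rich repeat genes. Among the 10 channel genes KCNC4 (1.82) and KCNS3 (1.06) rose. Among the 21 O-glycosylation genes GALNT18 (1.23), GCNT4 (1.03), GALNT10 (0.80) and GALNT1 (0.76) rose and C1GALT1 (-1.04) fell. The HMGB relatives of the knocked-down gene, HMGB1 and HMGB3, were at 0.01 and 0.15 in siHMGB2 in the fit of all 14 libraries. They fell by 2.11 and 1.02 in ICM 3-4 (adjusted p = 0.000875 and 0.0460 by edgeR). In ICM 1-2, where 2 of the 3 HMGB genes were called lower, HMGB1 was at 103 and 158 CPM, against 373 and 366 CPM in WT. HMGB3 was at 11.8 and 27.6 CPM there, against 35.7 and 35.3 CPM in WT.

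**Figure D5:**
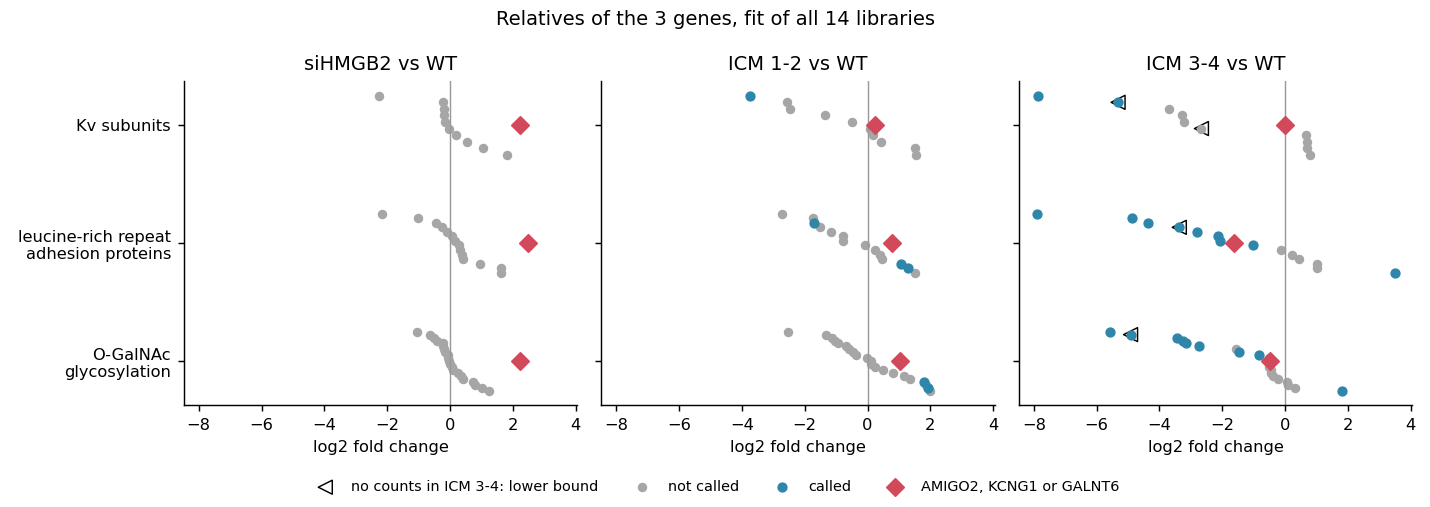
Log2 fold change of the tested relatives of each gene (circles, blue where the adjusted p was under 0.05) and of KCNG1, AMIGO2 and GALNT6 (diamonds) in 3 comparisons, from the fit of all 14 libraries; triangles mark genes without counts in ICM 3-4, drawn at their lower bound. The diamonds lie within the range of their relatives in both ICM sets, while their place in siHMGB2 follows from how the genes were chosen.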

How the data were processed

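Total RNA of 14 IMR90 libraries was sequenced in pairs of reads (TruSeq kit, NovaSeq6000, per the labels' protocols). The authors deposited 1 table per library with whole-number counts per gene symbol. The submitters' processing notes list STAR 2.7.3a, HTSeq 0.12.4, DESeq2 1.36.0 and hg38, and the annotation release and strand setting are not given in the sources used here. The 5 lines that name no gene held 12.8% to 41.8% of each table's counts and were left out.

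Counts were scaled to CPM of the gene counts for display. edgeR 4.0.16 (R 4.3.3) fitted 1 mean per group over all 14 libraries, with filterByExpr, TMM factors, quasi-likelihood F-tests (two-sided) and Benjamini-Hochberg adjustment over 19126 genes, and called genes had an adjusted p under 0.05. Alternatives were DESeq2 1.42.0, other scalings and filters, the fit of only the libraries compared, each library left out and the replicate number as a block.

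The 3 genes and all lists (relatives, markers, motifs) were chosen with earlier results of these data known. Named were the 3 genes, HMGB2, of each list of relatives the 6 most abundant tested genes and the called gene with the largest change, the 4 nearest neighbours within 500 kb, the 5 genes most alike in log2(CPM + 1) (1 of them is not reported here), and the 5 next on HMGB2 knockdown; AMIGO1, GCNT1, ST6GALNAC4, KCNA3, SLC14A1 in siHMGB2, the relatives called in the 4-library fit of siHMGB2 and the called neighbours further off were named after their values were seen. Gene positions, neighbours and promoters came from RefSeq GRCh38.p14, which held 51616 of the 54628 symbols. Distances to neighbours were taken between the lowest coordinates of the genes, whatever their strand. Exon lengths, gene strands and shared exon bases came from GENCODE release 29. Exon lengths add every exon of a gene.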

Additional observations from a re-analysis of the deposited data

Results flagged for a closer look

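AMIGO2 was singled out because the 2 ICM sets, which carry the same treatment label, placed it in CPM on opposite sides of WT. ICM 1-2 was not called against WT (log2 fold change 0.79, SE 0.51), and the value was 0.02 without ICM 1. CPM leave out the TMM factors of the fit, 1.07 for ICM 2 and 0.928 for WT 2, which lower the first and raise the second. With these factors ICM 2 comes below WT 2 for AMIGO2, so ICM 1-2 and WT then overlap. Both ICM 1-2 libraries (44.4 and 20.3 CPM) lay above both WT libraries (16.4 and 18.4 CPM), and both ICM 3-4 libraries (8.32 and 4.81 CPM) lay below them. The first held for 32.3% of the tested genes and the second for 33.3%, and the share of genes with both was not counted. The difference between the sets was -2.42 on the log2 scale (edgeR quasi-likelihood test, adjusted p = 0.0126), and it was tested after the values had been seen. ICM 2 was 1.17 times the WT mean, and small RNA genes took 3.19% and 6.06% of gene counts in ICM 1-2 and at most 0.00778% in ICM 3-4, whose part was not tested.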

How the results depend on the processing

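In the tested comparisons, 178 of 213 values of the 3 genes under alternatives kept their direction and their side of the threshold, and 23 changed sign, 17 of them where 1 library was left out. For siHMGB2 against WT, which has no test, 37 of 39 values moved by less than the spread between replicates. Most of these values came from the same WT and siHMGB2 libraries under other settings, so the tally is no measure of replication. AMIGO2 in ICM 3-4 against WT was -1.40 with total-count scaling (not called) and -2.15 to -1.23 with 1 library left out (called in none of the 4). AMIGO2 in ICM 3-4 against ICM 1-2 was -2.47 in the fit of only these libraries (not called) and -2.94 to -1.65 with 1 library left out. KCNG1 in ICM 3-4 against WT was 0.038 with RLE scaling, 0.22 with total-count scaling, 0.0015 without small RNA and mitochondrial genes, 0.048 when the mean had to reach 1 CPM, 0.038 by DESeq2 and 0.035 in the fit of only these libraries, and -0.63 to 0.44 with 1 library left out. With any gene of 1 count kept, KCNG1 and GALNT6 in siSRRM2 against ICM 1-2 were -1.59 and -1.90 and called, as was GALNT6 in ICM 3-4 against ICM 1-2 at -1.54.

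With 1 library left out, AMIGO2, KCNG1 and GALNT6 ranged over 2.23 to 2.69, 1.89 to 2.50 and 1.93 to 2.47 in siHMGB2 against WT, 0.02 to 1.29, -0.39 to 0.69 and -0.58 to 1.78 in ICM 1-2 against WT, and -0.78 to 0.50, -2.05 to -0.97 and -2.67 to -0.30 in siSRRM2 against ICM 1-2. They ranged over -1.62 to -0.34, -0.50 to 1.42 and -1.42 to 1.82 in siBANF1 against ICM 1-2, -0.85 to 0.62, -0.55 to 0.52 and -0.70 to 0.33 in siCTCF against ICM 3-4, and for KCNG1 and GALNT6 -0.88 to 0.39 and -2.28 to 0.091 in ICM 3-4 against ICM 1-2. A group left with 1 library was assumed to vary like the others.

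Counts of genes called moved more. In siHMGB2 against WT, 0 genes became 94 with any gene of 1 count, 74 by DESeq2, 2055 in the fit of only these libraries and 261 in a fit without ICM 1-2 and the siBANF1 libraries, an alternative chosen after seeing the data. In ICM 1-2 against WT, 2582 became 3883, 4010 by DESeq2 and 33 in the fit of only these libraries, and 545 to 3612 with 1 library left out. In ICM 3-4 against WT, 5797 became 8993 in the fit of only these libraries, 10486 without ICM 1-2 and siBANF1, and 1922 to 2602 with 1 library left out. In siSRRM2 against ICM 1-2, 34 became 1 with total-count scaling, 814 with any gene of 1 count, 54 when the mean had to reach 1 CPM, 727 by DESeq2, 0 in the fit of only these libraries, and 1 to 47 with 1 library left out. In siBANF1 against ICM 1-2, 0 became 161 with any gene of 1 count, 24 by DESeq2, and 0 to 81 with 1 library left out. In ICM 3-4 against ICM 1-2, 3738 became 239 in the fit of only these libraries and 1206 to 6059 with 1 library left out. The cause of these shifts was not tested. Leaving out libraries leaves fewer samples, yet some of the counts rose when libraries were left out.

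The labels do not say that equal replicate numbers mark a shared culture, and the deviations of same-numbered libraries correlated at 0.06 in siHMGB2 and WT, -0.08 in ICM 1-2 and WT, -0.0010 in siSRRM2 and ICM 1-2 and 0.81 in siBANF1 and ICM 1-2. With the replicate block in fits of only the libraries compared, the counts of calls were 2293, 1445, 103 and 1 in that order, and AMIGO2, KCNG1 and GALNT6 were at 0.71, 0.21 and 0.67 in ICM 1-2 against WT. In the tested comparisons that it covered, the replicate block made no call of the 3 genes. It could not be fitted where AMIGO2 was called, in ICM 3-4 against WT and against ICM 1-2. ICM 3-4 shares no replicate number with WT, ICM 1-2 or siCTCF. Precision is limited by 2 libraries a group and by as few as 57 counts behind a GALNT6 value.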
